A study of Medicago sativa with 15 samples.

Results

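The comparison set alfalfa (Medicago sativa) roots after 8 h of alkaline stress against roots after 4 h of the same stress, 3 libraries against 3, so 6 of the 15 libraries of the study. Members were chosen by the sample titles alone. The 8 h and the 4 h roots came from seedlings under NaHCO3 at 50 mmol/L, and the 3 control libraries came from seedling roots under normal conditions. Libraries from 12 h and 24 h of stress, 3 each, show what followed. The labels name no treatment other than NaHCO3, and no cultivar, plant number or pooling. Whether replicates came from separate plants is not said, and a p-value here reflects library-to-library spread that could be technical. The treatment field of the control samples also reads alkaline stress, and their titles were followed. A single set of controls, with no sampling hour given, was analysed here, so duration of stress and hour of sampling cannot be told apart. In whole roots, fewer cells of a type and less RNA per cell cannot be told apart either.

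Sodium bicarbonate raises pH, bicarbonate and sodium around the root together. At high pH iron, phosphate and other nutrients become less soluble, and the proton gradient that drives uptake across the root surface is harder to keep. Roots of many plants answer within hours by changing proton pumping, ion transport and organic acid release, and an early shock response can give way to a later, adjusted state. Comparing 8 h with 4 h, with the unstressed level beside each change, asks which early changes had gone back by 8 h and which appeared only then. The gene IDs are not paired with names in the files and none matched the reference table, so no gene is given a function, the tissue could not be checked against root markers, and genes are grouped by direction and by the place of the control. Alfalfa is an outcrossing tetraploid, and IDs can be alleles or near-identical copies that share reads, so the split of reads among copies is uncertain for every ID.

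The 9 libraries of the 8 h, 4 h and control groups held 7160487 to 15180708 counts. Replicate 3 at 8 h and replicate 2 at 4 h stood apart: they were the shallowest of their groups, at 0.529 and 0.518 of the mean total of the other 2 libraries. At 8 h, replicate 3 lay between the other 2 libraries at 75.6% of 18747 genes with at least 300 counts, against 12.1% to 12.3% for the other libraries. At 4 h, replicate 2 lay between at 79.0% of 18354 genes, against 10.1% to 10.9%. These are called the intermediate libraries, and 12 h replicate 1 and 24 h replicate 1 are set aside with them in the fits on 11 libraries. The labels do not say whether an intermediate library holds RNA or reads of the other 2 of its group, and this was not tested. If it does, each of these groups holds 2 independent libraries, and the p-values from 15 libraries are too small. The calls and the main levels and gene counts below are also given without them. Thinned to 6863315 counts, the 8 h libraries held 69627, 70059 and 75547 genes with a count, against 61650, 68784 and 60924 at 4 h. All 3 libraries at 8 h lay above all 3 at 4 h (difference of means 7960 genes, exact two-sided permutation test, p = 0.1, the smallest p that 3 against 3 allows). Without the intermediate libraries the smallest p that 2 against 2 allows is 0.333. The control libraries held 76547, 75206 and 71580 genes at this depth.

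With all 15 libraries in the model, 7205 of 68605 genes tested (10.5%) differed between 8 h and 4 h by edgeR's quasi-likelihood test at an adjusted p below 0.05. Of these, 4629 genes (6.75% of those tested) were higher at 8 h and 2576 (3.75%) were lower. The smallest differences called were 1.10 on the log2 scale among higher genes and 1.14 in size among lower ones. Among the higher genes the median log2 difference was 4.83, or 3.78 when each gene without a count at 4 h is set at its lower bound, and among the lower genes it was -3.47, or -3.36 with bounds. Over all genes tested the median was 0.07. A difference of at least 16-fold was fitted to 59.8% of the higher genes and 40.2% of the lower ones, against 11.4% of genes tested. These shares use fitted sizes without the bounds, and with bounds the median of the higher genes lay below 16-fold. The median coding length was 1017 nt for higher genes, 1204 nt for lower genes and 1152 nt for genes tested.

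On all 15 libraries DESeq2 called 13738 genes (20%), 7893 higher (11.5%) and 5845 lower (8.52%), and limma-voom 6304 (9.19%), 4037 higher (5.88%) and 2267 lower (3.3%). The edgeR counts fell furthest when an intermediate library was left out. Leaving out both also leaves 2 libraries per group, and no other 8 h and 4 h pair was left out for comparison. In edgeR 2081 of 73858 genes passed without 8 h replicate 3 and 1594 of 73651 without 4 h replicate 2. Without both, 40 of 72891 (0.0549%) passed, 31 higher (0.0425%) and 9 lower (0.0123%). Leaving out 4 h replicate 1 or 3 gave 4339 of 73634 and 5059 of 73661 genes. Leaving out 8 h replicate 1 or 2 gave 5177 of 73834 and 4316 of 73738. When the intermediate libraries of 12 h and 24 h were left out too, edgeR called 0 of 71665 genes, with 7636 (10.7%) at an unadjusted p below 0.05. On those 11 libraries limma-voom also called 0, with 8300 (11.6%) at an unadjusted p below 0.05, and DESeq2 called 2395 (3.34%), 1574 higher (2.2%) and 821 lower (1.15%). Without the 2 intermediate libraries alone, limma-voom called 494 genes (0.678%), 353 higher (0.484%) and 141 lower (0.193%). DESeq2 called 4838 (6.64%), 3031 higher (4.16%) and 1807 lower (2.48%). Of these 4838 genes 4575 (94.6%) were among the 7205 in the same direction, which is 63.5% of the 7205, and both fits use the same 4 libraries of 8 h and 4 h. Fold sizes moved little: the median log2 difference of the 4629 higher genes was 4.79 and that of the 2576 lower genes -3.43 in the edgeR fit without those 2 libraries. The called genes were chosen on the same libraries, so that these sizes persist is no independent check.

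**Figure D1:**
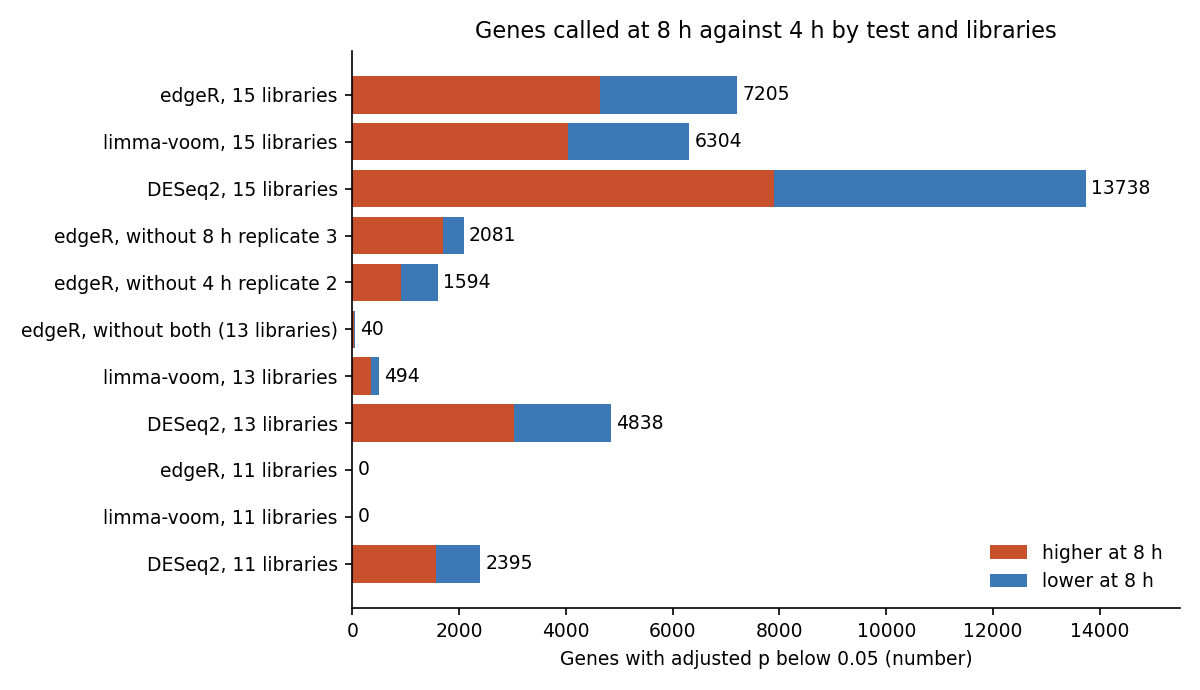
Number of genes with an adjusted p below 0.05 at 8 h against 4 h (x axis), split into higher and lower at 8 h, for 3 tests and for the libraries named on the y axis. The bars shrink from 7205 genes with 15 libraries to 40 without both intermediate libraries in edgeR, and DESeq2 calls 4838 on the same 13 libraries, against 13738 on 15.

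Each called gene was then placed beside the control. A gene is said to return when 4 h differed from control in the direction opposite to the 8 h change, and to be new when 4 h did not differ from control by the test but 8 h did, in the direction of its change from 4 h. Of the 4629 genes higher at 8 h, 2835 returned (61.2%) and 571 were new (12.3%). Of the 2576 genes lower at 8 h, 634 returned (24.6%) and 972 were new (37.7%). A further 1183 higher and 890 lower genes differed from control at neither time, and 40 higher and 80 lower genes moved further from control than they were at 4 h. Over all 68605 genes tested, 4 h differed from control at 19%, being above it at 6.43% and below it at 12.5%, and 8 h at 12.4%, being above it at 5.11% and below it at 7.29%. The 4 h libraries enter both comparisons, so the counts are a description without a test of their own.

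That returns took a larger share among higher than among lower genes depended on the test and, for FPKM, on the pseudocount. With DESeq2 on 15 libraries the shares were 60.2% of higher and 28.3% of lower genes, and on 13 libraries 64.7% and 24.7%. With limma-voom on 15 libraries they were 48.5% and 38.2%, and with limma on log2(FPKM + 1) they were 41.6% and 43.2%, the other way round. With limma on log2(FPKM + 0.1) they were 57.3% and 28.7%. The 3469 returns in both directions (48.1% of calls) became 2831, 2522 and 1324 (54.7%, 58.4% and 63.6% of calls) without replicates 1, 2 and 3 of 8 h in turn. They became 2304, 784 and 2175 (53.1%, 49.2% and 43% of calls) without replicates 1, 2 and 3 of 4 h. The 1543 new genes of 7205 called became 941 of 5177, 720 of 4316 and 295 of 2081 when replicates 1, 2 and 3 of 8 h were left out in turn. They became 463 of 1594 without 4 h replicate 2, and 889 of 5961 and 878 of 6180 without control replicates 1 and 2. Without both intermediate libraries edgeR left 30 returns and 10 new genes.

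**Figure D2:**
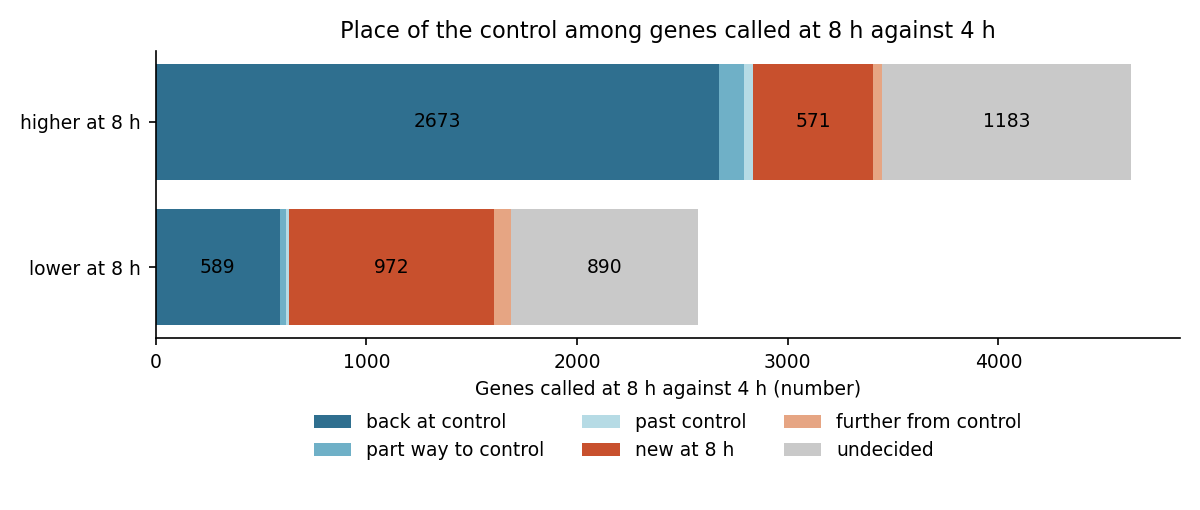
Number of genes called at 8 h against 4 h (x axis), higher at 8 h above and lower at 8 h below, split by the place of the control. Back at control means that the gene returned and 8 h did not differ from control by the test, which does not show equal levels. Among higher genes the 2673 back at control form the longest stretch, and among lower genes the 972 new at 8 h do.

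Most genes that rose back toward control were low at 4 h. Of the 2835, 2241 (79%) averaged below 1 FPKM there, 1296 of them without a count in the 3 libraries, while 594 (21%) averaged at least 1 FPKM and up to 394. Their median FPKM, which scales counts by gene length and library total, was 3.76 at 8 h and 0.0309 at 4 h, and 4.06 in control, or 3.57 at 8 h and 0.0377 at 4 h without intermediate libraries. Together the 2835 genes took 3.13%, 3.84% and 3.52% of the counts in 8 h replicates 1, 2 and 3, against 0.487%, 0.429% and 0.373% in 4 h replicates 1, 2 and 3. The control libraries gave 3.54% to 3.69% to the same genes, so the 8 h share overlapped that of control. The 4 h share lay below both, as the choice of these genes requires. The choice does not require that 8 h reach the control level. Of the 2835, 2673 did not differ from control at 8 h by the test, 120 were still below control, and 42 were above it. The 120 genes part way had a median FPKM of 2.46 at 8 h and 0.0239 at 4 h, with 27.7 in control. The 42 genes past control had 9.94 at 8 h and 0.0593 at 4 h, with 1.47 in control.

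MS.gene011226 (coding length 933 nt) had the smallest p on the 11 libraries that are not intermediate among 880 eligible higher genes that returned. Its level was 114, 84.8 and 122 CPM (the count scaled by the library total) at 8 h, and it had no count in any 4 h library. In control it stood at 41.3, 13.9 and 47.8 CPM. The 8 h libraries thus lay above all others, and the level was at least 1200-fold higher at 8 h than at 4 h, against 3 counts over the 3 libraries at 4 h (edgeR adjusted p = 0.000439). Leaving out 4 h replicate 1 or 3 lowered that bound to 750 or 700, through the smaller total alone. Its 8 h level was 1.68 ± 0.554 (SE) above control on the log2 scale and did not pass the test (edgeR adjusted p = 0.068). It had no count in the 12 h libraries either, and 42.7, 18.1 and 54.5 CPM at 24 h, so its presence alternated between the times. Without both intermediate libraries its edgeR adjusted p was 0.0145, and on 11 libraries 0.0744.

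Lower genes that returned had peaked at 4 h. Their median FPKM was 2.54 at 8 h and 21.3 at 4 h, and 2.63 in control, or 2.53 at 8 h and 21.2 at 4 h without intermediate libraries. The 634 genes took 0.883%, 0.834% and 0.832% of the counts in 8 h replicates 1, 2 and 3, against 4.15%, 4.54% and 4.83% in 4 h replicates 1, 2 and 3. Control libraries ranged from 0.801% to 0.867% and overlapped the 8 h values. The choice of these genes requires 4 h to lie above both, but not that 8 h and control overlap. Of these genes 589 did not differ from control at 8 h by the test, 28 were still above it and 17 had fallen below it. At 4 h, 48 genes made up 50% of the group's counts, and the most abundant had 2460 CPM.

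MS.gene28110 (coding length 300 nt) is one of the 17 that fell below control and had the smallest p without intermediate libraries among 416 eligible lower genes that returned. It had no count in any 8 h library, against 20.1, 28.2 and 35.4 CPM at 4 h. Control libraries had 6.73, 8.59 and 6.04 CPM, so 4 h lay above control and 8 h below it, with no overlap among the 3 groups. The 8 h level was at least 341-fold lower than at 4 h, and at least 214-fold and 199-fold lower without 8 h replicates 1 and 2, again through the smaller total (edgeR adjusted p = 0.000439). It stayed low later, at 1.46, 2.27 and 0.901 CPM at 12 h and 1.37, 0.80 and 0.341 CPM at 24 h. Its edgeR adjusted p was 0.0194 without both intermediate libraries and 0.142 on 11 libraries.

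**Figure D3:**
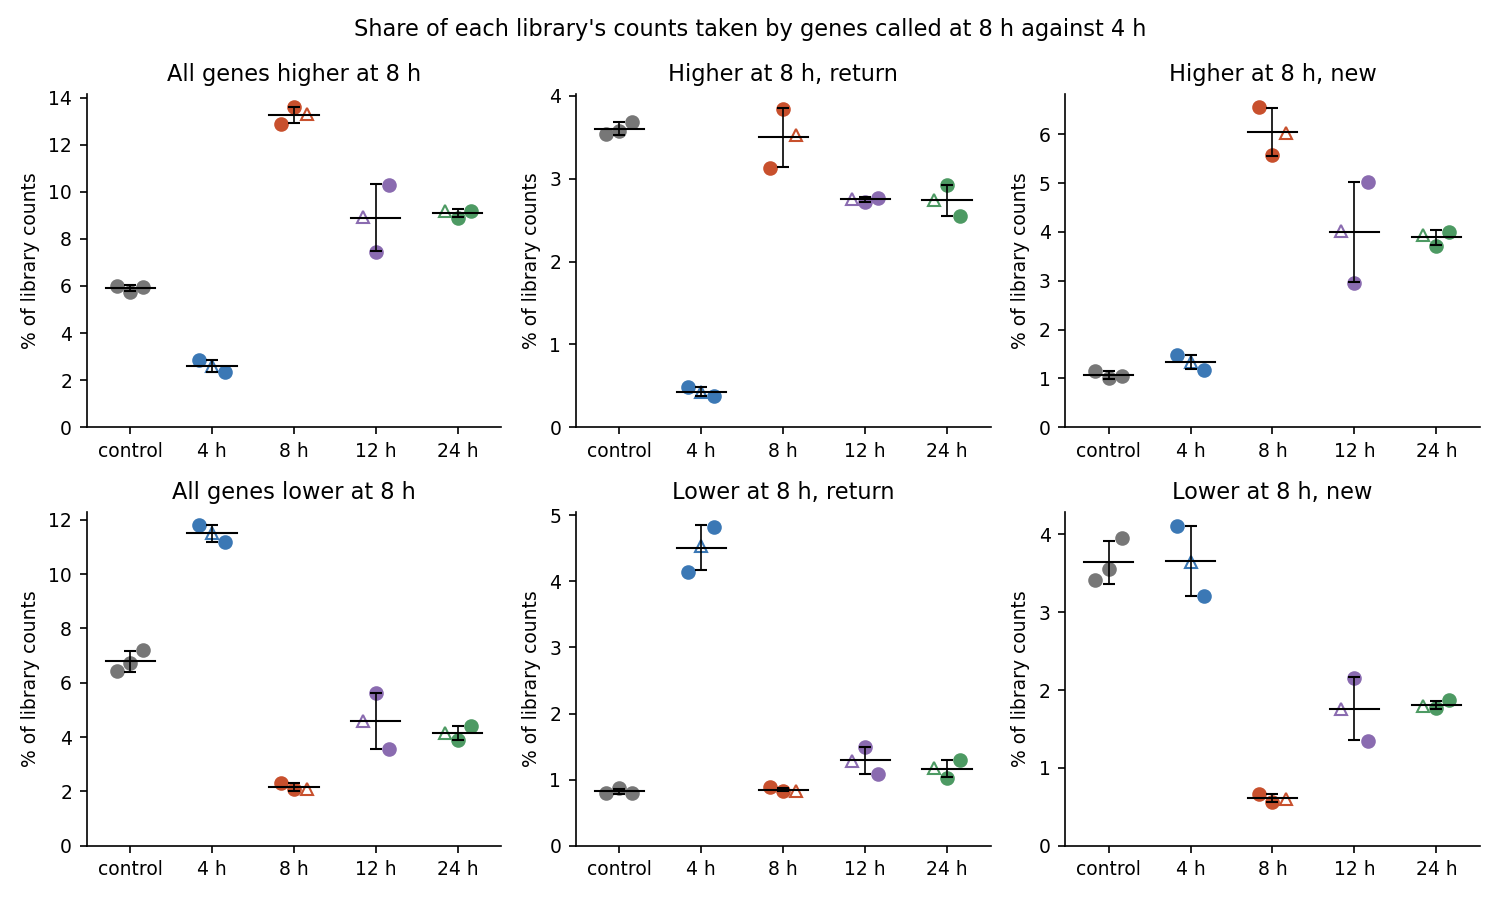
Percent of each library's counts (y axis) taken by genes called higher (upper row) or lower (lower row) at 8 h against 4 h, for all of them, those that return toward control and those new at 8 h, across control and 4 to 24 h of stress. Points are libraries, open triangles the intermediate ones, and bars the mean ± SD of 3 libraries; new higher genes take 5.58% to 6.56% at 8 h, above every other group.

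New increases at 8 h were fewer than returns but took more of the counts. The 571 new higher genes took 6.56%, 5.58% and 6.02% of the counts in 8 h replicates 1, 2 and 3, against 1.47%, 1.34% and 1.18% in 4 h replicates 1, 2 and 3, and 1.01% to 1.16% in control. Every 8 h library lay above every 4 h and control library, as the choice of these genes requires. Median FPKM was 19.7 at 8 h and 1.90 at 4 h, with 1.95 in control, or 19.4 at 8 h and 1.91 at 4 h without intermediate libraries. The counts were concentrated: 15 genes held 50% of the group's counts at 8 h, the top 10 held 43.7%, and the most abundant stood at 7230 CPM. Later the group kept a raised share, 2.96% to 5.02% at 12 h and 3.72% to 4.01% at 24 h, below every 8 h library. Each of these ranges lay above control.

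MS.gene27195 (coding length 408 nt) had the smallest p without intermediate libraries among 332 eligible new higher genes. It reached 49.2, 3.43 and 25.7 CPM at 8 h and had no count at 4 h. Control replicate 1 had 2 counts of it and the other 2 controls none. Its 8 h libraries differed among themselves by more than 10-fold, and the 8 h level was at least 292-fold higher than at 4 h, or 126-fold and 473-fold without 8 h replicates 1 and 2 (edgeR adjusted p = 0.0024). Without 4 h replicates 1 and 3 the bound was 182 and 170. The gene went on to 86.0, 24.0 and 159 CPM at 12 h and 349, 276 and 417 CPM at 24 h, so the 24 h libraries lay above all earlier ones. Without both intermediate libraries it missed the threshold (edgeR adjusted p = 0.0558, limma-voom adjusted p = 0.071), as it did on 11 libraries (edgeR adjusted p = 0.269).

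New decreases at 8 h were in genes expressed in unstressed roots, as the choice of these genes requires, since control had to lie above 8 h. The 972 new lower genes took 0.670%, 0.565% and 0.597% of the counts in 8 h replicates 1, 2 and 3, against 4.11%, 3.65% and 3.21% in 4 h replicates 1, 2 and 3. Control libraries gave them 3.41% to 3.95%, which overlaps the 4 h range. A gene counted as new only where 4 h did not differ from control by the test. Median FPKM was 0.421 at 8 h and 7.85 at 4 h, with 9.36 in control, or 0.443 at 8 h and 7.84 at 4 h without intermediate libraries. Later shares were 1.35% to 2.16% at 12 h and 1.77% to 1.87% at 24 h, above 8 h and below control in every library. The genes were chosen for low 8 h levels, and how much of the later difference follows from that was not tested. At 4 h 22 of these genes held 50% of the group's counts.

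MS.gene03600 (coding length 465 nt) had the smallest p without intermediate libraries among 501 eligible new lower genes. Only 10, 12 and 4 counts were found at 8 h, or 0.734, 0.790 and 0.525 CPM, against 2050, 1060 and 62.7 CPM at 4 h. Control libraries had 392, 325 and 110 CPM. The 4 h libraries spread widely and overlapped control, whereas the 8 h libraries agreed among themselves and lay far below both. From pooled counts the 8 h level was 1420-fold lower than at 4 h (exact 95% interval 972 to 2180, for counting error only, edgeR adjusted p = 0.000875). Without 4 h replicate 1 the ratio was 549 and without 4 h replicate 3 it was 2380. At 12 h it stood at 508, 447 and 464 CPM, above every control library, and at 24 h at 893, 1470 and 172 CPM. Its edgeR adjusted p was 0.0464 without both intermediate libraries and 0.269 on 11 libraries, and limma-voom did not call it on the 13 libraries (adjusted p = 0.156). DESeq2 called MS.gene03600 and the other 3 genes named here on 13 and on 11 libraries, with adjusted p of at most 2.61e-05 (MS.gene27195). The named genes were picked by their p on those 11 libraries, so these values are no independent check.

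**Figure D4:**
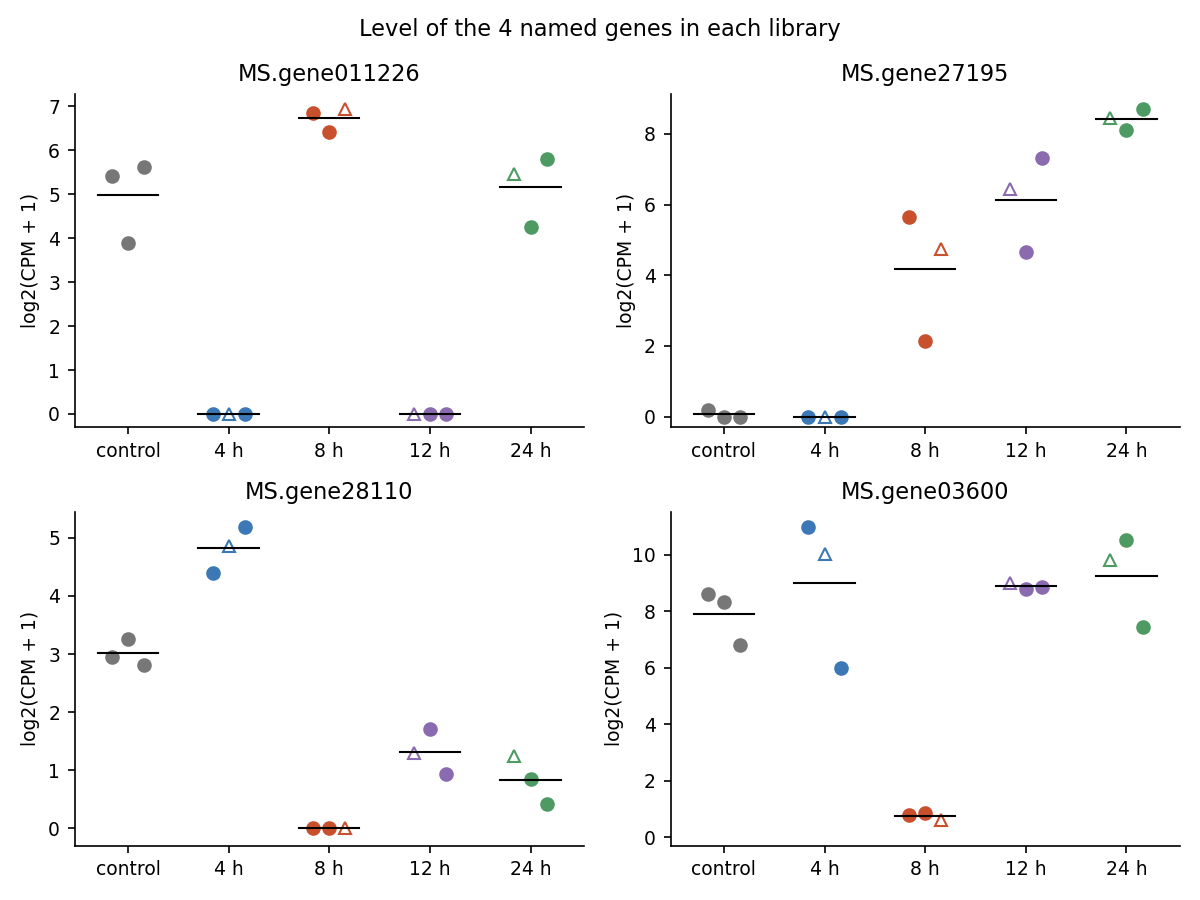
Level of 4 genes in all 15 libraries as log2(CPM + 1) (y axis) in control and at 4, 8, 12 and 24 h of stress (x axis); filled points are libraries, open triangles the intermediate ones, black lines group means. MS.gene011226 is without counts at 4 h and 12 h, MS.gene27195 appears from 8 h, MS.gene28110 is without counts at 8 h, and MS.gene03600 dips at 8 h alone.

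Movement further from control was rare, with 40 higher genes (0.0583% of genes tested) and 80 lower genes (0.117%). The 40 genes that were above control at 4 h and higher again at 8 h had a median FPKM of 70.2 at 8 h. All higher genes together had 5.09 there. The 40 genes had 13.3 at 4 h and 1.83 in control, or 65.7 at 8 h and 12.7 at 4 h without intermediate libraries. They took 0.886% to 1.31% of the counts at 8 h and 0.277% to 0.347% at 4 h, against 0.0732% to 0.0916% in control. In the other direction, 80 genes had a median FPKM of 1.00 at 8 h and 7.46 at 4 h, or 1.06 and 7.58 without intermediate libraries. In control the 80 genes had 51.2, against 4.73 over all lower genes. Their share was 0.0368% to 0.0428% at 8 h and 0.129% to 0.180% at 4 h, with 0.757% to 0.777% in control. Both sets were thus ordered control, 4 h, 8 h without overlap of the summed shares, as the choice of the genes requires.

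The place of the control was also read from levels, without any call against control. On the log2 CPM scale, with the 4 h mean at 0 and the 8 h mean at 1, the control mean had a median position of 0.771 for higher genes and 0.349 for lower genes. Control was nearer to 8 h than to 4 h at 71.5% of the higher genes and 39.2% of the lower genes, against 53.1% of 60601 genes not called. Without intermediate libraries in the means, these shares were 72.4%, 38.9% and 53.1%. Control lay beyond 8 h, by more than 0.5 of the 4 h to 8 h distance, at 8.53% of the higher genes. The same held at 2.72% of the lower genes and 27.8% of genes not called. It lay beyond 4 h by as much at 1.40%, 8.27% and 24.8%, in that order. The 8 h and 4 h means set the scale and also chose the genes, so the shares describe these genes.

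**Figure D5:**
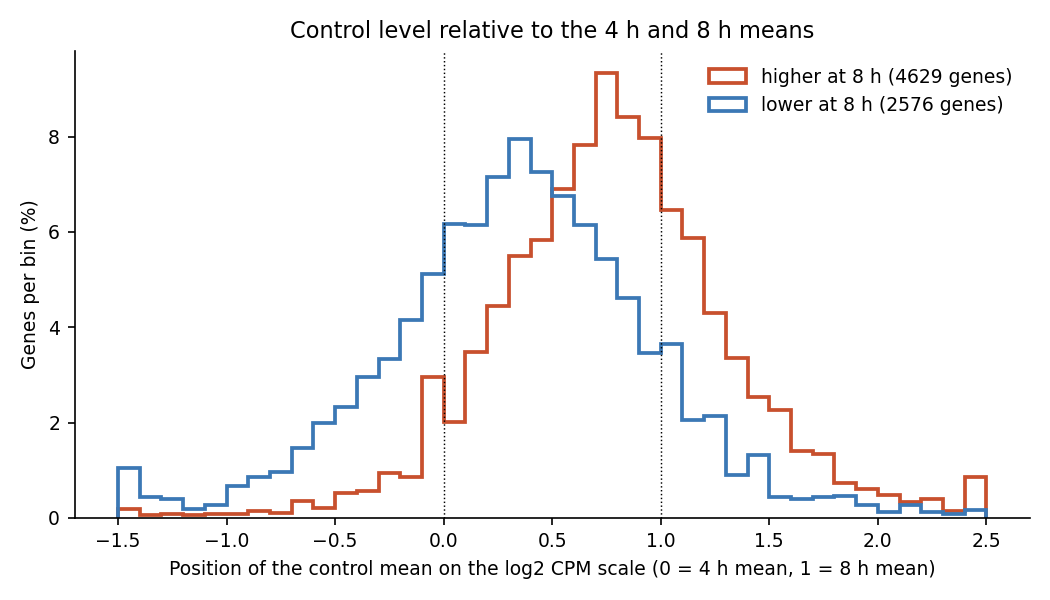
Position of the control mean between the 4 h mean (0) and the 8 h mean (1) on the log2 CPM scale (x axis) for 4629 genes higher and 2576 genes lower at 8 h, as percent of genes per bin (y axis); values outside the range shown are counted in the end bins. Higher genes centre nearer to the 8 h mean (median 0.771) and lower genes nearer to the 4 h mean (median 0.349).

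Many of the differences were between presence and absence of counts. In all 3 libraries of 4 h, 1723 of the 4629 genes higher at 8 h (37.2%) were without a count, whereas 7.61% of genes tested had none there. Of the 2576 lower genes, 422 (16.4%) had no count in any 8 h library, against 3.34% of genes tested. Without the intermediate libraries these numbers were 1739 (37.6%, against 7.79% of genes tested) and 428 (16.6%, against 3.43%). The called genes were chosen on these same libraries, so an excess over genes tested is no independent result. Among genes tested, 1.29% had no count in control, 2.12% none at 12 h and 3.74% none at 24 h, so 4 h was the group with the most. Pooled totals were 36417270 counts at 8 h, 34807341 at 4 h and 39038586 in control, and 3 counts at 4 h correspond to 0.0862 CPM. The 1723 genes were mostly low, with a median of 1.56 CPM at 8 h, and 63 of them averaged at least 10 CPM there. Their lower bounds on the fold over 4 h ran from 2.23-fold to 1200-fold, with a median of 18.2. Of the 1723, 1291 (74.9%) had counts in all 3 controls, 1310 in all 3 libraries at 12 h and 1220 in all 3 at 24 h, and 661 had counts in all 12 libraries outside 4 h. Of the 422 genes absent at 8 h, 299 had counts in all 3 controls, 237 in all 3 libraries at 12 h and 193 at 24 h. Limited to called genes with a count at both times, 2906 were higher and 2154 lower, and the returns fell to 2128.

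Abundant genes of the unstressed root leaned toward decrease. Among the 100 most abundant genes of the control libraries, 3 were higher at 8 h than at 4 h and 16 were lower, 11 of them new. Among the 1000 most abundant, 58 were higher and 77 lower, while over all genes tested higher calls prevailed (6.75% against 3.75%). Of the 100 most abundant at 8 h, 26 were higher, 16 of these new, and 1 was lower. Of the 100 most abundant at 4 h, 5 were higher and 21 lower. Ranked without the intermediate libraries, the 8 h list held 25 higher and 1 lower, and the 4 h list again 5 and 21. The lists from 8 h and 4 h use libraries of the comparison itself and are given as a description. The control list does not, but a lower gene counts as new only where control lay above 8 h. The number of new genes in the control list is thus not independent of its ranking. Across quartiles of mean CPM over all 15 libraries, the share of genes called was 8.06%, 10.6%, 11% and 12.3% from the lowest to the highest. The median fitted size of a called difference was 6.69, 5.70, 3.54 and 2.47 on the log2 scale in the same order. These sizes are without bounds, and a rare gene passes the test only with a large difference. The order therefore describes the calls and not how far rare genes changed. With quartiles set on the 11 libraries the shares were 8.27%, 10.6%, 10.9% and 12.3%.

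Between the 2 libraries of a group that were not intermediate, spread was wide. The median absolute log2 difference between 8 h replicates 1 and 2 was 1.22 at higher genes, 0.791 at lower genes and 1.17 at genes not called. Between 4 h replicates 1 and 3 it was 0.504 at higher, 1.35 at lower and 1.52 at genes not called. Pairs of controls ranged from 0.568 to 0.902 at called genes and from 0.718 to 0.962 at genes not called. A difference of 4-fold or more separated the 2 libraries at 29.4% of genes not called at 8 h and at 40.8% at 4 h. At 4255 of the 4629 higher genes (91.9%) both of these 8 h libraries lay above both 4 h libraries, and at 2276 of the 2576 lower genes (88.4%) both lay below. The same held at 20.4% and 15.1% of genes tested, and the called genes were chosen on these libraries.

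After 8 h the higher genes stayed nearer to their 8 h mean more often than genes not called did, and the lower genes as a set did not. At 12 h, 78.3% of the higher genes were nearer to their 8 h than to their 4 h mean, and at 24 h 78.1%, against 57.1% and 58.0% of genes not called. Among lower genes it was 51.4% at 12 h and 55.9% at 24 h, below those not called. The groups differed: new higher genes were nearer to 8 h at 58.1% and 65.3%, and new lower genes at 36.8% and 41.8%. Higher genes that returned were nearer to 8 h at 86.2% and 83.8%, and lower genes that returned at 74.6% and 75.6%. Summed over all higher genes, the share of counts was 5.76% to 6.01% in control, 2.36% to 2.84% at 4 h, 12.9% to 13.6% at 8 h, 7.46% to 10.3% at 12 h and 8.91% to 9.19% at 24 h. Summed over all lower genes, it was 6.44% to 7.20% in control, 11.2% to 11.8% at 4 h, 2.07% to 2.32% at 8 h, 3.56% to 5.63% at 12 h and 3.91% to 4.42% at 24 h. In both sets 8 h and 4 h, the times by which the genes were chosen, were the extremes. The control, 12 h and 24 h libraries all lay between them. Without intermediate libraries the nearness shares were 77.3% at 12 h and 76.6% at 24 h for higher genes and 52.6% and 57.3% for lower genes, against 56.8% and 57.3% of genes not called. How much of this follows from choosing genes by their 8 h and 4 h levels was not tested.

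The 40 genes called without both intermediate libraries were all among the 7205. Back at control here means only that 8 h did not differ from control by the test, which does not show equal levels. Classed by the fit on 13 libraries, 28 of the 31 higher genes were back at control, 2 were new and 1 was past control. Of these, 22, 0 and 1 had the same class on 15 libraries. The 28 had a median of 14.3 CPM at 8 h (range 3.73 to 107) and 0 at 4 h (range 0 to 1.30), and 17 of them had no count at 4 h. Their control median was 10.2 CPM (range 1.49 to 181), and at 12 h and 24 h it was 11.3 and 13 CPM. Of the 9 lower genes, 8 were new on 13 libraries, 6 of them also on 15, with a median of 0.353 CPM at 8 h and 58.3 CPM at 4 h, and 36.9 CPM in control. Their medians at 12 h and 24 h were 14.2 and 34.2 CPM. The other lower gene, back at control on 13 libraries but not on 15, averaged 6.85 CPM at 8 h and 304 CPM at 4 h, with 43.9 CPM in control. The medians over the genes count all 3 libraries of each group.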

How the data were processed

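Roots of alfalfa seedlings were sequenced in 15 libraries, 3 each for control and for 4, 8, 12 and 24 h of stress, grouped by sample title; per the labels' protocols, total RNA from a column kit went into a SMARTer mRNA-Seq library preparation. The authors deposited raw read counts for 164632 gene IDs and, for each ID, FPKM, which divides counts by gene length and by the library's size, per the file headers and values. Not given in the sources used here are the aligner, the counting tool, its strand setting, the handling of multiply mapped reads and the genome build. Of the IDs, 0 matched the Bolivia_mono reference table; no gene list, marker or sequence is used.

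Counts were tested with edgeR 4.0.16 (R 4.3.3): filterByExpr, TMM scaling, quasi-likelihood fit of 5 groups to 15 libraries, two-sided, Benjamini-Hochberg adjustment over 68605 genes, threshold 0.05. The code was also run on simulated counts with a fixed spread and no intermediate libraries, which does not vouch for the calls here. SE is the log2 difference over the square root of F. CPM is the count over the library total; log2 CPM positions use TMM and a prior count of 1. Bounds set 3 counts over a group's libraries where it had none. Coding length is the length implied by count and FPKM. Intervals cover counting error only, since reads carry no molecular identifiers. The named genes were, per direction and for returns and new genes, the smallest p on 11 libraries among genes with a mean of at least 5 CPM over control, 4 h and 8 h, at least 2-fold in both fits and no overlap between the libraries left. The alternatives used limma 3.58.1 and DESeq2 1.42.0, FPKM of at least 1 in 3 libraries with pseudocounts of 1 and 0.1, and other filters, scalings and libraries. Those on 7 libraries, on genes with counts at both times, and limma-voom and DESeq2 on 13 libraries were added after seeing the data, as were shared calls and the levels, gene counts and quartiles given without intermediate libraries. Comparison, classes and gene rule were chosen with earlier results of these data known.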

Additional observations from a re-analysis of the deposited data

How the results depend on the processing

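Other scalings, filters (none, or CPM of at least 1 in 3 libraries), limma-voom, limma on FPKM and a limit of 2-fold kept all 5 counts (7205 called, 4629 higher, 2576 lower, 3469 returns, 1543 new) within 1.5 times on the 15 libraries, and every gene called differed by at least 2-fold. DESeq2 gave 13738 called, 7893 higher, 5845 lower, 6410 returns and 3502 new. Without 4 h replicate 2 and 8 h replicate 3 edgeR gave 40, 31, 9, 30 and 10 in that order, limma-voom 494, 353, 141, 278 and 108, and DESeq2 gave 3031 higher genes. On 11 libraries, and on the 7 from control, 4 h and 8 h without intermediate ones, edgeR gave 0 for all 5 counts (7636 and 7608 genes at an unadjusted p below 0.05), as did limma-voom on 11 (8300), while DESeq2 gave 2395, 1574, 821, 1228 and 526. With only control, 4 h and 8 h fitted, 4706 were called, 2753 higher, with 2277 returns; with only 4 h and 8 h, 3089 were called, 1919 higher and 1170 lower, without classes. At an adjusted p of 0.01 the counts were 1279, 914, 365, 656 and 198. Counting only genes with counts at both times gave 2906 higher and 2128 returns. Leaving out each 8 h, 4 h or control library in turn gave 1594 to 6928 called, with 73361 to 73858 genes tested. Higher genes were 915 to 4298, lower 391 to 2630, returns 784 to 2831 and new genes 295 to 1513. The cause of these shifts was not tested. No named gene lost its call or turned when 1 library was left out, and on 11 libraries none was called by edgeR or limma-voom and all 4 were called by DESeq2. The named genes were picked on the same libraries, so that their calls held is no independent check.

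Replicate numbers did not pair the libraries: the deviations of same-numbered 8 h and 4 h libraries from their group means correlated at -0.0096, -0.0297 and -0.0555 across 27961 genes, and the highest value was between the intermediate libraries (0.148), so libraries did not correlate best with their own number. With the replicate number as a block 4305 genes were called, 2866 higher, 1439 lower, 2143 returns and 915 new. The median log2 difference of all genes moved from 0.066 to 0.216 with limma-voom and to 0.171 on log2(FPKM + 0.1), and higher calls still prevailed there (64.0% and 65.8% of calls, against 64.2%). Without 8 h replicates 1, 2 and 3 higher calls were 78.3%, 79.1% and 81.2%. Depth limits the genes without counts, where 3 counts stand for 0.0824 CPM at 8 h and 0.0862 CPM at 4 h.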
